A study of Homo sapiens with 12 samples.

Results

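The genes described here are 6 transcripts of the glucocorticoid axis, chosen by gene symbol: HSD11B1, H6PD, NR3C1, FKBP5, TSC22D3 and PER1. All 6 had a row in each of the 3 comparison tables, which hold 15255 genes for a6, 18534 for SAHA and 27126 for compound 1, and each passed the low-count limit of every table through its level in Ctrl as well as with the compound. The 6 were selected with the changes in these same tables known, so their values against Ctrl and between compounds are a description and carry no test. MDA-MB-231, a long-established line from a human breast tumour of the triple-negative class, was grown in DMEM with fetal bovine serum. It was treated for 48 h with a6, SAHA or compound 1, each at 2.5 µM, or with the solvent DMSO (Ctrl), in 3 libraries a group and 12 in all. SAHA, also called vorinostat, inhibits histone deacetylases (HDACs), the enzymes that take acetyl groups off histones. Per the labels, a6 acts on HDACs and on G-quadruplexes (G4s), folded structures of guanine-rich nucleic acid, while SAHA and compound 1 have a single target each. No glucocorticoid is named among the treatments of any group, and the steroid content of the serum was not analysed here.

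Glucocorticoid hormones such as cortisol enter cells and bind the glucocorticoid receptor, which then moves to the nucleus and switches genes on or off. How much hormone reaches the receptor is set inside the cell by a reductase, the product of HSD11B1, that regenerates cortisol from inactive cortisone and is best known from liver and fat. That reductase sits in the endoplasmic reticulum and draws its NADPH from the enzyme encoded by H6PD. NR3C1 encodes the receptor itself. FKBP5, TSC22D3 and PER1 are classical targets that the bound receptor induces in many tissues: a co-chaperone that lowers hormone binding, a leucine zipper protein of anti-inflammatory responses, and a component of the circadian clock.

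With a6 and with SAHA, HSD11B1 stood higher than in Ctrl, while the receptor gene and its 3 classical targets had 95% intervals that span equality with Ctrl. Computed mean normalized counts of HSD11B1 were 88.0 with a6 against 17.0 in Ctrl of the same table, 265 with SAHA against 17.3 in Ctrl, and 27.3 with compound 1 against 17.3 in Ctrl. These are group means over 3 libraries each, worked out from the mean count and fold change of each table; values of single libraries were not analysed here, so overlap between libraries of different groups cannot be given. In bulk RNA, more transcript in every cell and a larger share of cells with the transcript cannot be told apart. Against the same Ctrl libraries, H6PD was lower with a6 and SAHA by a similar amount, with intervals that leave out equality but adjusted p-values above 0.05.

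**Figure D1:**
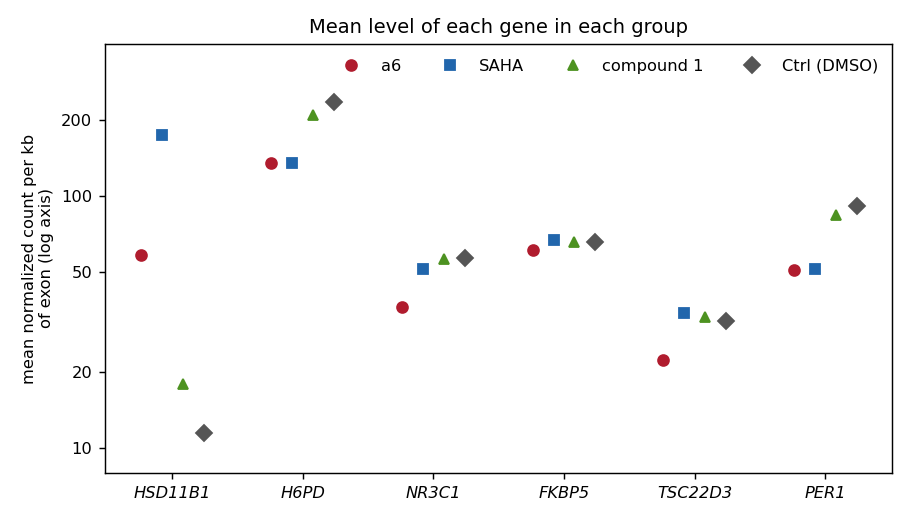
Mean level of each of the 6 genes in each group, as mean normalized count per kb of exon on a log axis; points are group means over 3 libraries and carry no error bar, and Ctrl is taken from the SAHA table. HSD11B1 stood at 58.2 with a6, 175 with SAHA, 18.0 with compound 1 and 11.5 in Ctrl, while the 4 points of FKBP5 lay between 61.3 and 66.9.

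HSD11B1 lies on chromosome 1, at chr1:209686178-209734950 on the plus strand (GRCh38, GENCODE 29), and is protein-coding. Its log2 fold change against Ctrl was 2.37 with a6 (standard error 0.47) per the authors' deposited table, a 5.18-fold higher level with a 95% interval of 2.73 to 9.82. With SAHA it was 3.93 (0.39) per the authors' deposited table, a 15.3-fold higher level with an interval of 8.97 to 26.0. With compound 1 it was 0.66 (0.56) per the authors' deposited table, 1.57-fold with an interval of 0.740 to 3.35 that spans equality. The authors' deposited table gives adjusted p-values of 0.000552 for a6, 3.45e-20 for SAHA and 1.000 for compound 1, from DESeq2's Wald test with each table's own Benjamini-Hochberg adjustment. By size of log2 fold change HSD11B1 ranked 14 from the top of the 15255 genes with a6, 188 of 18534 with SAHA and 4613 of 27126 with compound 1, genes of low count included.

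The order of HSD11B1 levels was SAHA, a6, compound 1 and Ctrl, from high to low. Between compounds, at matched dose and time, 3 pairs were set side by side. On the log2 scale the difference of the fold changes was -1.56 for a6 minus SAHA (standard error 0.61, 95% interval -2.76 to -0.36), which puts the a6 level at 0.339 times the SAHA level. For a6 minus compound 1 it was 1.72 (0.73, 0.29 to 3.15), and for SAHA minus compound 1 it was 3.28 (0.68, 1.94 to 4.61). All 3 intervals leave out 0, as a description of a gene picked for its response, and they are not adjusted for the number of genes. With adjustment over all genes of both tables, only SAHA minus compound 1 had an adjusted p under 0.05 by a two-sided z test. Compound 1 and Ctrl are the only neighbours in the order of levels whose interval spans equality. The comparisons share the Ctrl libraries, which tends to make these summed errors too large.

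At an adjusted p under 0.05 the 6 genes gave 1 raised and 0 lowered with a6, 1 raised and 0 lowered with SAHA, and 0 of either with compound 1. Among all genes, a6 raised 0.243% and lowered 0.341%, SAHA raised 4.53% and lowered 3.02%, and compound 1 raised 0% and lowered 0%. Nothing is read from the count of the 6 against these shares, because the same tables chose them. With compound 1, 54 of 27126 genes, 0.199%, had an unadjusted p under 0.05. That share is far below the fraction of 0.05 that well-calibrated p-values would give with no change at all. The compound 1 p-values are thus conservative, and a gene that does not pass with compound 1 is not shown to be unchanged. Over all genes SAHA raised 839 and lowered 560; removal of a trend of fold change on GC content gave 861 raised and 368 lowered. With mean counts of 50 or more the balance turned, to 446 raised and 521 lowered, and over the genes of all 3 tables it was 590 and 557. HSD11B1 is in the authors' deposited lists of raised genes for a6 and SAHA, which take an unadjusted p under 0.05 and at least a 2-fold change. In the 6 deposited lists of G4-related genes, 0 of the 6 genes are found. Those lists are named by compound and direction of change, but their genes do not all follow that direction. CDC37, in the a6 lowered list, had a log2 fold change of 0.46 with a6. SMARCD1, in the SAHA raised list, was at -0.62 with SAHA. How the lists were drawn up was not worked out here, so absence from them does not show that a gene lacks G4s.

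**Figure D2:**
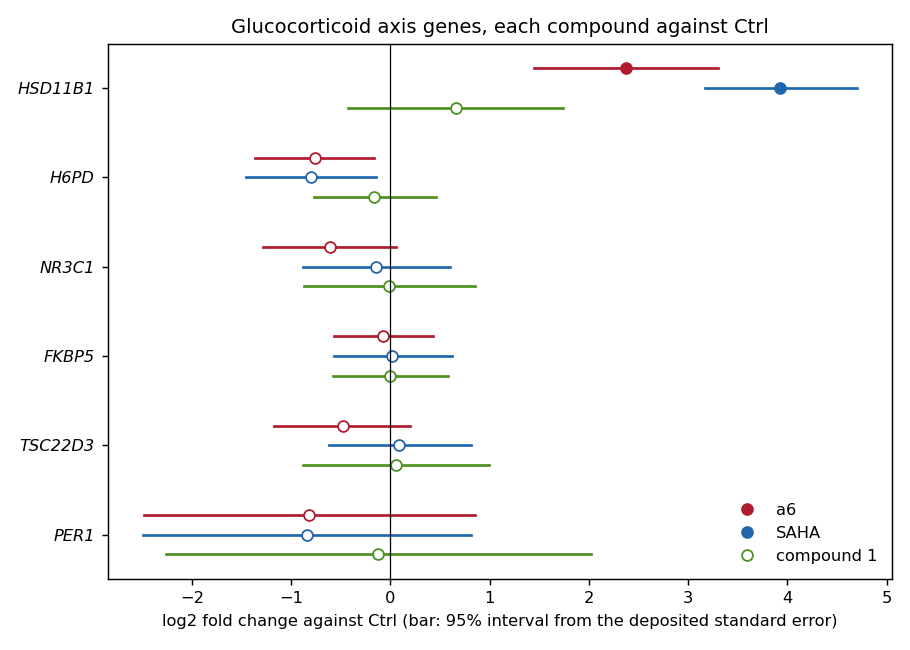
Log2 fold change of each gene against Ctrl for a6, SAHA and compound 1; bars are 95% intervals from the deposited standard errors, and filled points have a deposited adjusted p under 0.05. HSD11B1 is filled for a6 at 2.37 and for SAHA at 3.93, and the intervals of PER1, the widest, reach from -2.49 to 2.02 over the 3 compounds.

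The promoter window of HSD11B1, 250 bases before to 50 after the annotated start, is shown because HSD11B1 alone of the 6 genes was called. It covers chr1:209685929-209686228 on the plus strand (RefSeq, GRCh38.p14), and capitals mark CG dinucleotides.
HSD11B1: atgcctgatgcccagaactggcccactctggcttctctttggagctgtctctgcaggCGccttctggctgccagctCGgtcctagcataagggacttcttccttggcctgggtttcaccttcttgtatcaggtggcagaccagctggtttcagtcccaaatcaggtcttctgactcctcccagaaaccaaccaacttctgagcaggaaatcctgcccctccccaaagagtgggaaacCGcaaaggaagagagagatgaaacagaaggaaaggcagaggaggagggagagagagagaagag
This window holds 3 CG dinucleotides and 54.3% G and C, against medians of 14 and 58.7% over 35116 such windows in the RefSeq table, of which 18.2% hold fewer CG dinucleotides. Of the motifs searched on both strands, 0 matched in it. They were the glucocorticoid receptor's single site AGAACA (in 14.8% of all windows), the full response element, AGAACA then NNN then TGTTCT, which contains the single site (0.00285%), the E-box CACGTG (7.26%), the cAMP response element TGACGTCA (1.85%), the C/EBP site TTNNGNAA (36.8%), TATAAA (11.5%), CCAAT (34.6%) and a G4 motif of 4 runs of at least 3 G with gaps of 1 to 7 bases (25.0%). All 6 genes had at least 1 window in that table. The G4 motif was in 3 of 7 windows of NR3C1, 3 of 4 of TSC22D3, 1 of 1 of PER1, 0 of 2 of FKBP5 and 0 of 1 of H6PD.

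GENCODE 29 gives HSD11B1 transcripts that start at chromosome 1 positions 209686178, 209686180 and 209686269, and a further one, HSD11B1-202, that starts 18668 bases downstream of the first. The tables give 1 value per gene, so the start sites in use were not analysed here. An antisense gene, HSD11B1-AS1, overlaps HSD11B1 on the opposite strand. Its log2 fold change was 0.46 (standard error 0.66) with a6, 0.28 (0.65) with SAHA and 0.25 (1.03) with compound 1 per the authors' deposited table, with computed levels of 36.3, 32.9 and 32.1 against 26.4 to 27.1 in Ctrl. The use of strand in counting was not stated in the labels, and without strand the reads of HSD11B1 and of HSD11B1-AS1 cannot be told apart where they overlap.

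H6PD, at chr1:9234775-9271337 on the plus strand, encodes the hexose-6-phosphate dehydrogenase that supplies NADPH inside the endoplasmic reticulum. Its computed level was 1262 with a6 against 2139 in Ctrl, 1262 with SAHA against 2190.5 in Ctrl, and 1954 with compound 1 against 2182 in Ctrl. The log2 fold change was -0.76 (standard error 0.31, 95% interval -1.36 to -0.16) with a6 per the authors' deposited table, with an adjusted p of 0.414. With SAHA it was -0.80 (0.33, -1.45 to -0.14) per the authors' deposited table, with an adjusted p of 0.138, and with compound 1 it was -0.16 (0.31, -0.77 to 0.46). By DESeq2's Wald test the unadjusted p-values were 0.0134 for a6 and 0.0166 for SAHA per the authors' deposited table. The levels with a6 and SAHA were close, with a difference of 0.03 on the log2 scale and an interval of -0.85 to 0.92. Both changes are set against the same Ctrl libraries, so they are not independent. The standard error of H6PD was above that of 97.0% of the 200 genes nearest in mean count with a6, and of 92.0% with SAHA. With the GC trend removed, its log2 fold change was -0.74 with a6 and -0.67 with SAHA. SLC37A4, the transporter that carries glucose 6-phosphate to that enzyme, had computed levels of 1224, 1537 and 1654 with a6, SAHA and compound 1, against 1833, 1877 and 1872 in Ctrl. Its log2 fold change was -0.58 (0.25) with a6 and -0.29 (0.30) with SAHA per the authors' deposited table, with adjusted p-values of 0.499 and 0.709. Of the 7 measured genes of the cytosolic pentose phosphate pathway, which runs the parallel reactions outside that compartment, 0 passed with any compound. At an unadjusted p under 0.05 there were 0 for a6 and compound 1 and 1, above 0, for SAHA. Among all genes, SAHA raised 4.53% and lowered 3.02%, and a6 raised 0.243% and lowered 0.341%. Shares with an unadjusted p under 0.05 were 18.4% for SAHA, 7.41% for a6 and 0.199% for compound 1. With 7 genes, nothing is read from these counts.

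HSD11B2 encodes the opposing enzyme, which inactivates cortisol to cortisone in tissues such as kidney. Its computed levels were low, at 12.2 with a6, 16.1 with SAHA and 16.9 with compound 1, against 17.5 to 17.9 in Ctrl. The log2 fold changes were -0.52 (standard error 0.68), -0.16 (0.60) and -0.08 (0.53) per the authors' deposited table, and at these counts a change of the size seen for H6PD was not detectable.

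NR3C1 encodes the glucocorticoid receptor and lies at chr5:143277931-143435512 on the minus strand. Computed levels were 334 with a6 against 509.5 in Ctrl, 472 with SAHA against 519.6 in Ctrl, and 518 with compound 1 against 521 in Ctrl. The log2 fold change was -0.61 (standard error 0.34, 95% interval -1.28 to 0.06) with a6, -0.14 (0.38, -0.88 to 0.60) with SAHA and -0.01 (0.44, -0.87 to 0.85) with compound 1 per the authors' deposited table. All 3 intervals span 0, and the lowest level was with a6. Per kb of exon, the receptor gene stood at 36.4 with a6, 51.5 with SAHA, 56.4 with compound 1 and 56.7 in Ctrl. On this per-length scale HSD11B1 was below NR3C1 in Ctrl and with compound 1, and above it with a6 and SAHA.

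NR3C2, the gene of the mineralocorticoid receptor, which also binds cortisol, had computed levels of 48.6 with a6, 94.9 with SAHA and 44.5 with compound 1, against 39.4, 40.2 and 40.2 in Ctrl. Its log2 fold change with SAHA was 1.24 (0.43) per the authors' deposited table, with an adjusted p of 0.0540 that missed the threshold. Among the chaperones that hold the receptor ready for hormone, FKBP4, a co-chaperone that favours receptor transport, fell with SAHA to 1910.3 against 3162 in Ctrl. Its log2 fold change was -0.73 (0.25) per the authors' deposited table, with an adjusted p of 0.0430. For FKBP4 the values were 0.13 (0.21) with a6 and 0.07 (0.21) with compound 1 per the authors' deposited table. HSP90AB1, HSP90AA1 and PTGES3, which encode HSP90 and its partner p23, lay between -0.44 and -0.09 with a6, between -0.52 and -0.15 with SAHA and between -0.12 and -0.02 with compound 1 per the authors' deposited table, and 0 of the 3 passed with any compound. The coactivators NCOA1, NCOA2 and NCOA3 and the corepressor NCOR1, which carries HDACs to repressed genes, did not pass either, with log2 fold changes of -0.68 to 0.33 over the 3 compounds per the authors' deposited table. In the whole list of receptors, chaperones and coregulators, 0 of 38 measured genes were raised and 1 lowered with SAHA, with a median log2 fold change of -0.16 beside -0.01 over all genes. The shares of all genes were 4.53% raised and 3.02% lowered with SAHA, and 0.243% raised and 0.341% lowered with a6. With a6 the same list gave 0 raised and 0 lowered of 38, with 1 raised and 0 lowered at an unadjusted p under 0.05, and a median of 0.00 beside -0.03. Of all genes, 7.41% were under that unadjusted limit with a6.

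FKBP5 encodes a co-chaperone that reduces the receptor's affinity for hormone and lies at chr6:35573585-35728583 on the minus strand. Computed levels were 652 with a6 against 685 in Ctrl, 711 with SAHA against 699 in Ctrl, and 699 with compound 1 against 699 in Ctrl. Its log2 fold changes were -0.07 (standard error 0.25, 95% interval -0.57 to 0.43), 0.02 (0.30, -0.57 to 0.62) and -0.00 (0.29, -0.58 to 0.58) per the authors' deposited table. These are the narrowest intervals of the 6 genes, and leave room for a fold change of 0.670 to 1.54 over the 3 compounds.

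TSC22D3, also known as GILZ, lies at chrX:107713221-107777342 on the minus strand. Computed levels were 107 with a6 against 149.5 in Ctrl, 163 with SAHA against 153 in Ctrl, and 159 with compound 1 against 153 in Ctrl. The log2 fold change was -0.48 (standard error 0.35, 95% interval -1.17 to 0.20) with a6, 0.09 (0.37, -0.62 to 0.81) with SAHA and 0.06 (0.48, -0.88 to 0.99) with compound 1 per the authors' deposited table. As for NR3C1, the lowest level was with a6 and every interval spans 0. TSC22D1, a relative of TSC22D3 from the same family, was at -0.34 (0.28) with a6, 0.46 (0.33) with SAHA and 0.24 (0.43) with compound 1 per the authors' deposited table.

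PER1, at chr17:8140472-8156506 on the minus strand, was measured with far less precision than its count would give. Computed levels were 355 with a6 against 625 in Ctrl, 359 with SAHA against 641 in Ctrl, and 588 with compound 1 against 638 in Ctrl. The log2 fold changes were -0.82 (standard error 0.85, 95% interval -2.48 to 0.85), -0.84 (0.84, -2.49 to 0.81) and -0.12 (1.09, -2.26 to 2.02) per the authors' deposited table. All of the 200 genes nearest in mean count had a smaller standard error with a6 and with SAHA, and 99.5% of them with compound 1, and the medians of those 200 were 0.25, 0.30 and 0.26. DUSP1, a phosphatase gene that glucocorticoids and stress both induce within minutes to hours, was also imprecise, with standard errors of 0.80 with a6, 0.47 with SAHA and 1.14 with compound 1 per the authors' deposited table. A large standard error at a high count means that the libraries of the compared groups differed widely for that gene. The libraries behind that spread were not analysed here.

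**Figure D3:**
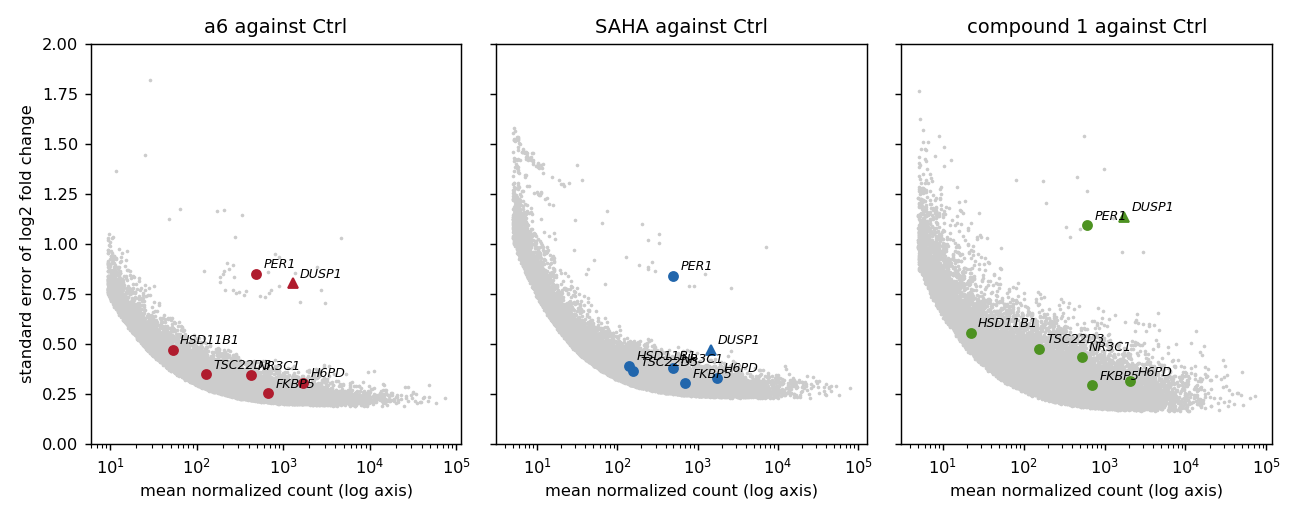
Standard error of the log2 fold change against mean normalized count (log axis) in the tables of a6, SAHA and compound 1, for genes whose mean count reached 5 (grey), with the 6 genes as coloured circles and DUSP1 as a triangle. PER1 lies at 0.85, 0.84 and 1.09, above the grey band at its count in each panel, and the other 5 genes lie lower, with 47.0% to 97.0% of the 200 genes nearest in count below them.

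The promoter window of PER1 is shown as the window with the most matches, 7, among those of the 6 genes. It covers chr17:8152355-8152654 on the minus strand (RefSeq, GRCh38.p14), and capitals mark motif matches.
PER1: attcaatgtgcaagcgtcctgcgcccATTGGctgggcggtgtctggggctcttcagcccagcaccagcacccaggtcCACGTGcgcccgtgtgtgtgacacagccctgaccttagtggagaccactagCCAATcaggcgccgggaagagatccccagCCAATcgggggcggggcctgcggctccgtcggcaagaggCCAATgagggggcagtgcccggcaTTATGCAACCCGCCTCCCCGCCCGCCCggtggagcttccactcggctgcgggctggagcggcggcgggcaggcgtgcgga
Counted from RefSeq's annotated start as 0, the E-box lies at -173 to -168 and a C/EBP site at -30 to -23. The C/EBP site directly adjoins a G4 motif at -22 to -4, whose G runs are on the opposite strand, so the capitals of both run together. CCAAT was found at -122, -93 and -54, and in reverse at -224. The single site AGAACA was not in this window and was found in 1 of 1 window of H6PD and 1 of 2 of FKBP5.

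PER2 and PER3, the other period genes of the clock, had standard errors of 0.50 and 0.32 with a6 and 0.52 and 0.42 with SAHA per the authors' deposited table. Their log2 fold changes were -0.80 and -0.41 with a6, -1.13 and -0.91 with SAHA, and 0.33 and 0.18 with compound 1 per the authors' deposited table, with adjusted p-values of 0.826, 0.908, 0.195, 0.208, 1.000 and 1.000 in that order. Among all genes, a6 raised 0.243% and lowered 0.341%, and SAHA raised 4.53% and lowered 3.02%. Of the circadian clock genes measured, 21 with a6 and 23 with SAHA, 0 were raised and 1 lowered with each. With a6 it was BHLHE40, a transcriptional repressor of the clock, which fell to 308 against 717 in Ctrl, with a log2 fold change of -1.22 (0.31) and an adjusted p of 0.0223 per the authors' deposited table. BHLHE40 was at -0.96 (0.33) with SAHA per the authors' deposited table, with an adjusted p of 0.0511. With SAHA it was TIMELESS, a replication fork protein, which fell to 359 against 694 in Ctrl. TIMELESS had a log2 fold change of -0.95 (0.26) and an adjusted p of 0.00662 per the authors' deposited table. The median of the clock list was -0.27 with a6 beside -0.03 over all genes, and -0.16 with SAHA beside -0.01.

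Genes widely reported as induced by glucocorticoids did not move in 1 direction. Of 39 measured with SAHA, FKBP5, TSC22D3 and PER1 left out, 4 were raised and 4 lowered. SAHA raised 4.53% and lowered 3.02% of all genes. The list's median log2 fold change was 0.15 beside -0.01 over all genes. ANGPTL4, an inhibitor of lipoprotein lipase, rose to 359.9 with SAHA against 95.8 in Ctrl, with a log2 fold change of 1.91 (standard error 0.35) and an adjusted p of 7.39e-06 per the authors' deposited table. CXCR4, a chemokine receptor, rose to 296 with SAHA against 92.0 in Ctrl (1.69, 0.31, adjusted p 7.98e-06) per the authors' deposited table. MAOA, which breaks down monoamines, and MT1X, a metallothionein, rose by 1.32 (0.30) and 1.41 (0.42) per the authors' deposited table; reads of MT1X may be shared with near-identical metallothioneins. In the other direction CEBPD, a transcription factor gene, fell to 231 with SAHA against 1075 in Ctrl, with a log2 fold change of -2.22 (0.46) and an adjusted p of 0.000112 per the authors' deposited table. IGFBP1, a binder of insulin-like growth factors, was at -1.10 (0.33), NFKBIA, the inhibitor of NF-kappaB, at -0.89 (0.28), and GLUL, glutamine synthetase, at -0.77 (0.25) per the authors' deposited table, all 3 lowered. KLF9 and SGK1, both induced early by the receptor, were at 1.14 (0.61) and 0.77 (0.35) with SAHA per the authors' deposited table, with adjusted p-values of 0.307 and 0.192. ZBTB16 was not analysed here.

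With a6, 0 of 37 measured genes of that induced list were raised and 2 were lowered by the authors' DESeq2 test, with 4 and 7 at an unadjusted p under 0.05 and a median of -0.28 beside -0.03 over all genes. Among all genes, a6 raised 0.243% and lowered 0.341%, and 7.41% had an unadjusted p under 0.05. CRISPLD2, a secreted protein that dampens inflammatory signalling, fell to 99.0 with a6 against 265 in Ctrl, with a log2 fold change of -1.42 (standard error 0.37) and an adjusted p of 0.0323 per the authors' deposited table. LCN2, the siderophore-binding lipocalin, fell to 149 with a6 against 458 in Ctrl, with -1.62 (0.44) and an adjusted p of 0.0391 per the authors' deposited table. CRISPLD2 was at 0.20 (0.31) and LCN2 at -0.90 (0.44) with SAHA per the authors' deposited table. For a6 minus SAHA the difference was -1.63 for CRISPLD2 (0.49, adjusted p 0.139 by a z test adjusted over all genes of both tables) and -0.72 for LCN2 (0.62, adjusted p 1.000). CEBPD was at -1.45 with a6 per the authors' deposited table, but its standard error of 0.77 exceeded that of all 200 genes nearest in mean count, and it did not pass; with SAHA, where it passed, its error was likewise above all 200. With compound 1, 0 of 40 measured genes passed in either direction, and 0 had an unadjusted p under 0.05.

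Genes widely reported as repressed by glucocorticoids also had calls both ways with SAHA, with 3 raised and 1 lowered of 17 measured and a median of -0.02. Over all genes SAHA raised 4.53% and lowered 3.02%, with a median of -0.01. IL1A, an inflammatory cytokine, rose to 299 against 79.0 in Ctrl, with a log2 fold change of 1.92 (standard error 0.51) and an adjusted p of 0.00522 per the authors' deposited table. MMP1, a collagenase, rose to 1250.3 against 448 in Ctrl (1.48, 0.42, adjusted p 0.00962) per the authors' deposited table. MMP3, a stromelysin, was near the floor in Ctrl, with a level of 30.5 with SAHA against 1.37 in Ctrl and an adjusted p of 0.000127 per the authors' deposited table. Its Ctrl level lies under the lowest mean count of the SAHA table, 2.44, so MMP3 had a row only through its level with SAHA, and the raised count of this list is not independent of that limit. CSF2, the cytokine GM-CSF, fell to 37.6 against 87.8 in Ctrl (-1.22, 0.41, adjusted p 0.0414) per the authors' deposited table. With a6, 0 of 14 passed in either direction, and 0 had an unadjusted p under 0.05. With compound 1, 0 of 21 passed, with 1 raised at an unadjusted p under 0.05, and the median was 0.64 beside 0.01 over all genes. Shares of all genes under that unadjusted limit were 7.41% with a6 and 0.199% with compound 1. Mean counts reached 50 for 12 of these 21, as for 12 of the 17 with SAHA and 12 of the 14 with a6. The compound 1 median thus covers a wider set, with more genes of low count.

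In the list of steroid metabolism, with HSD11B1 and H6PD left out, SAHA raised 5 and lowered 2 of 26 measured genes. Over all genes SAHA raised 4.53% and lowered 3.02%, and the list median was 0.29 beside -0.01. Only 17 of the 26 had mean counts of 50 or more. The raised genes HSD17B2, AKR1C2 and ABCB1 were below that, with mean counts of 49.9, 21.5 and 5.35. HSD17B2, which oxidises and so inactivates oestradiol and testosterone, rose to 89.3 with SAHA against 10.5 in Ctrl, with a log2 fold change of 3.08 (standard error 0.50) and an adjusted p of 1.37e-07 per the authors' deposited table. SRD5A3, a reductase of dolichol synthesis named for its steroid 5-alpha-reductase relatives, rose to 256 with SAHA against 76.2 in Ctrl (1.75, 0.33, adjusted p 1.58e-05) per the authors' deposited table. AKR1C3 and AKR1C2, which reduce keto-steroids, rose by 0.91 (0.30) and 1.88 (0.63), with adjusted p-values of 0.0356 and 0.0396 per the authors' deposited table; the AKR1C genes are close paralogs, so the share of reads of each is uncertain. ABCB1, the efflux pump P-glycoprotein, which exports cortisol, was at 10.5 with SAHA against 0.191 in Ctrl (adjusted p 0.00599) per the authors' deposited table. A gene at such a level in Ctrl entered the SAHA table, whose lowest mean count was 2.44, only through its level with SAHA, so the raised count of this list is not independent of that limit. HSD3B7, of bile acid synthesis, and CBR3, a carbonyl reductase, were lowered with SAHA, at -1.27 (0.33) and -1.09 (0.31) per the authors' deposited table. With a6, 0 of 22 genes of this list passed, with 1 raised and 2 lowered at an unadjusted p under 0.05. Among all genes, a6 raised 0.243% and lowered 0.341%, and 7.41% had an unadjusted p under 0.05. HSD17B2 was at 1.43 (0.69) with a6, with 27.4 against 10.2 in Ctrl and an adjusted p of 0.630 per the authors' deposited table.

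**Figure D4:**
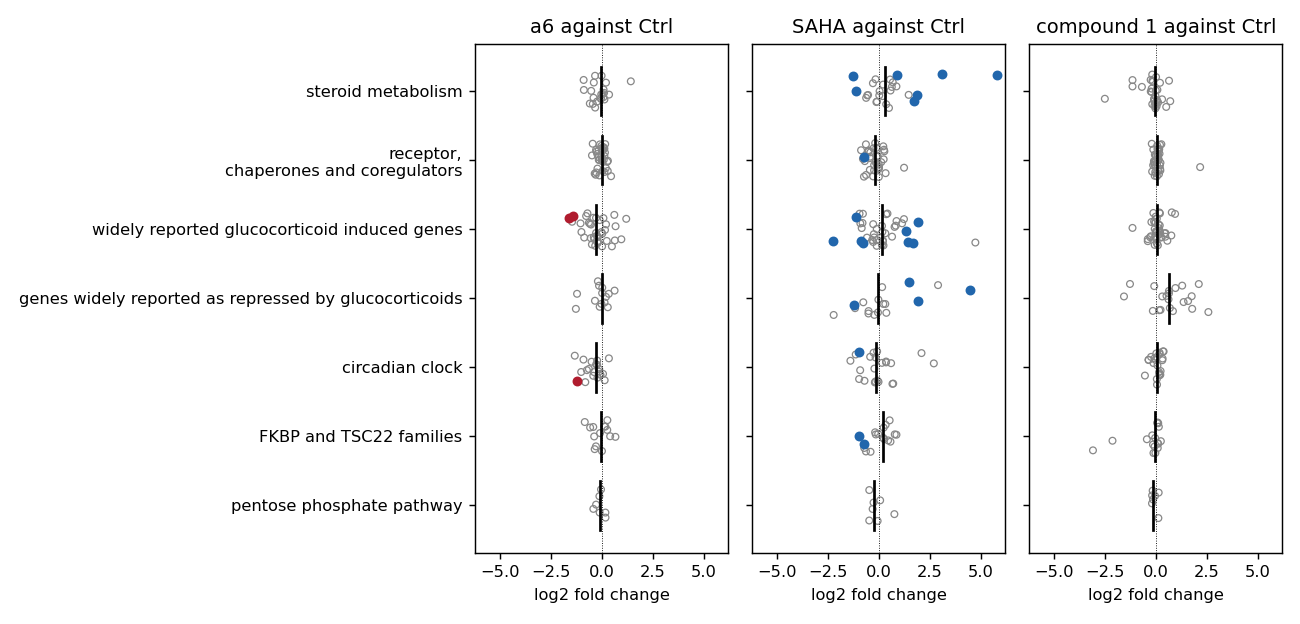
Log2 fold change of every measured gene of the 7 lists, with the 6 genes left out, for a6, SAHA and compound 1 against Ctrl; filled points have a deposited adjusted p under 0.05, open points do not, and vertical bars are list medians. SAHA has filled points on both sides of 0 in the steroid, induced and repressed lists, a6 has 3 filled points, all below 0, and compound 1 has 0.

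Over all 7 lists together, 195 genes with the 6 left out, SAHA raised 12 and lowered 10 of 166 measured, a6 raised 0 and lowered 3 of 152, and compound 1 raised 0 and lowered 0 of 179. For SAHA the counts were 8 raised and 11 lowered of 141 with mean counts of 50 or more, and 9 and 10 of 151 over the genes of all 3 tables, so which direction had more calls depended on the low-count limit. At an unadjusted p under 0.05 the counts were 27 raised and 27 lowered with SAHA, 7 and 13 with a6, and 1 and 0 with compound 1. Of all genes, in both directions together, 18.4% were under that limit with SAHA, 7.41% with a6 and 0.199% with compound 1. Of the FKBP and TSC22 families, 2 of 17 were lowered with SAHA, FKBP4 above and FKBP9, an endoplasmic reticulum isomerase, at 766 against 1491 in Ctrl (-0.96, 0.27, adjusted p 0.00789) per the authors' deposited table. In shares of all genes, SAHA raised 4.53% and lowered 3.02%, beside 12 and 10 of 166 genes here.

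Between compounds, the 3 pairs were tested over all genes with both tables, by a two-sided z test on the difference of log2 fold changes with Benjamini-Hochberg adjustment. Of all genes, 0.0590% were higher and 0.197% lower for a6 minus SAHA, 0.00656% higher and 0.0262% lower for a6 minus compound 1, and 0.583% higher and 0.481% lower for SAHA minus compound 1. Of the list genes, 0 of 152 passed for a6 minus SAHA (6 higher and 11 lower at an unadjusted p under 0.05) and 0 of 151 for a6 minus compound 1 (2 and 6). Shares of all genes at that unadjusted limit were not worked out for these pairs. For SAHA minus compound 1, 3 of 164 were higher and 0 lower. These were HSD17B2, with a difference of 3.77 (standard error 0.93, 95% interval 1.94 to 5.59, adjusted p 0.0109), CXCR4, with 1.70 (0.43, 0.86 to 2.53, adjusted p 0.0136), and SRD5A3, with 1.76 (0.48, 0.81 to 2.71, adjusted p 0.0306). Of the 6 genes, HSD11B1 was counted higher for SAHA minus compound 1 and in no other pair, a count that its selection had already used. For H6PD, NR3C1, FKBP5, TSC22D3 and PER1 every interval between compounds spans 0. The widest was that of PER1 for a6 minus compound 1, at -3.41 to 2.02, and the narrowest that of FKBP5 for a6 minus compound 1, at -0.83 to 0.69.

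Of the protein-coding genes that start within 250 kb of HSD11B1 (GENCODE 29), 6 are described. CAMK1G, a calcium-dependent kinase gene, was at 5.73 with SAHA against 0.675 in Ctrl, had a row in the SAHA table only through its level with SAHA, and had no row with a6. The other 5 all had a log2 fold change above 0 with SAHA and 1 was raised. Removal of the GC trend gave 2 raised. Over all genes the median with SAHA was -0.01 and 4.53% were raised. A rise of the region as a whole was not tested. G0S2, an inhibitor of triglyceride lipase whose start lies at -10.8 kb, upstream, rose to 4852 with SAHA against 2003 in Ctrl, with a log2 fold change of 1.28 (standard error 0.36) and an adjusted p of 0.00902 per the authors' deposited table. G0S2 was at 0.41 (0.31) with a6 and 0.49 (0.61) with compound 1 per the authors' deposited table, and its a6 minus SAHA difference was -0.86 (0.47, 95% interval -1.79 to 0.06). With a6, 4 of these 5 were above 0 and 0 passed in either direction, beside 0.243% raised and 0.341% lowered of all genes. LAMB3, a laminin chain whose start lies at -33.7 kb on the other strand, was at 0.45 (0.27) with a6 and 0.75 (0.31) with SAHA, per the authors' deposited table, with 0 of these values called. With compound 1, 0 of 6 passed and 2 were above 0.

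**Figure D5:**
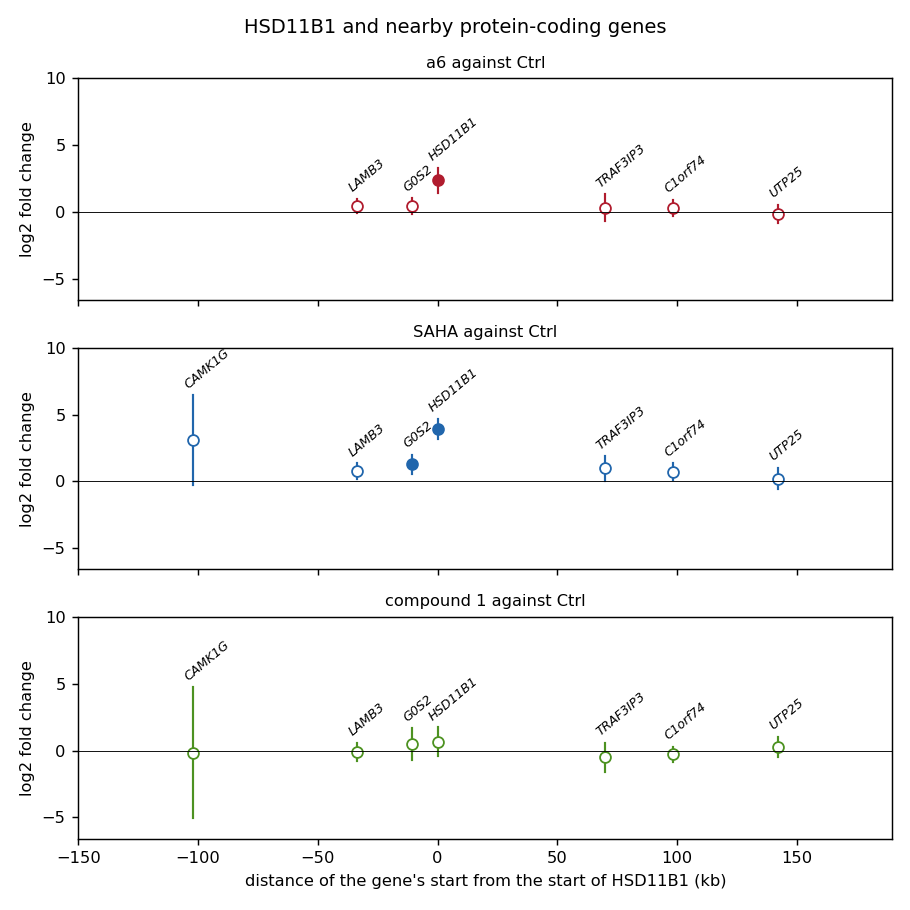
Log2 fold change with 95% interval of HSD11B1 and 6 nearby protein-coding genes, by distance of the gene's start from that of HSD11B1 in kb, for a6, SAHA and compound 1 against Ctrl; filled points have a deposited adjusted p under 0.05. With SAHA, G0S2 at 1.28 is filled beside HSD11B1 at 3.93, and with a6 HSD11B1 at 2.37 is the only filled point.

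The genes most like HSD11B1 in their 3 log2 fold changes, by Euclidean distance among 11696 genes with mean counts of 50 or more in every table (HSD11B1 itself had 22.3 in that of compound 1), were CGN (distance 0.49), TNFSF15 (1.45), LNCOG (1.62), TMEM45A (1.78) and NPPB (1.81). CGN, cingulin of epithelial tight junctions, had log2 fold changes of 2.33 with a6, 3.44 with SAHA and 0.69 with compound 1 per the authors' deposited table, beside 2.37, 3.93 and 0.66 for HSD11B1. TNFSF15, a cytokine of the TNF family, was at 1.11, 3.23 and 0.61 per the authors' deposited table. The likeness rests on 3 comparisons that share the Ctrl libraries, and is given as a description.

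The cell line's mesenchymal markers VIM, CD44, EGFR and AXL were all measured, with a summed computed level of 44672 to 50441 with the compounds and 51776 to 52964 in Ctrl, and 0 of the 4 passed. ESR1 and PGR, the hormone receptors that triple-negative cells lack, had mean counts of 0.489 and 0.317 in the compound 1 table and no row in the other tables used here. Among luminal and epithelial markers others were abundant: the summed level of those measured, 4 of 7 with a6, 5 with SAHA and 7 with compound 1, mostly KRT8, KRT18 and ERBB2, was 27041 with a6 against 27439.9 in Ctrl, 35505 with SAHA against 28082 in Ctrl, and 24045 with compound 1 against 28018 in Ctrl, and 0 were called. Of 4 adipocyte markers, listed because HSD11B1 is known from fat, 2 were measured with SAHA, with a summed level of 43.0 against 8.72 in Ctrl; FABP4, at 39.1 with SAHA against 0.194 in Ctrl, was raised, PLIN1 was at -1.12 (standard error 0.94) per the authors' deposited table, and ADIPOQ and LEP had no row. FABP4, and LUM below at 49.3 with SAHA against 0.378 in Ctrl, had a row in the SAHA table only through their levels with SAHA, so their calls are not independent of its low-count limit. The hepatocyte markers had a summed level of 493 with SAHA against 746 in Ctrl, with no row for ALB or APOB, and 313 with a6 against 725 in Ctrl from SERPINA1 alone, which was lowered. Of the myeloid and fibroblast markers, CD14 and LUM were raised with SAHA and PI16 was lowered with a6, while PI16 was at 59.9 with SAHA against 84.7 in Ctrl and not called, with no row for PTPRC, CD163, PDGFRA or DCN. Summed levels were 99.3 with SAHA against 28.2 in Ctrl for the myeloid list and 109 with SAHA against 85.1 in Ctrl for the fibroblast list, and 18.5 against 27.6 and 18.2 against 82.8 for a6 and Ctrl. The part of these markers in the HSD11B1 result was not tested. As a sign of RNA quality, the log2 fold changes of the 13 mitochondrial messenger RNAs had medians of -0.01 with a6, 0.06 with SAHA and -0.23 with compound 1. Of the 13, 5 were above 0 with a6, 10 with SAHA and 0 with compound 1. Their summed level with compound 1 was 247517 against 290822 in Ctrl. The number that passed was 0 of 13 with each compound, but with compound 1 it was 0 among all genes too, so it is a weak check there.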

How the data were processed

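RNA of 12 MDA-MB-231 libraries, 3 a group, was sequenced by the authors. Per the submitters' processing notes, the tools were cutadapt and DESeq2 and the build GRCh38, also called hg38. Aligner, counter, tool versions and strand use were not given in the sources used here. Libraries carry biological-replicate titles, with nothing on separate cultures, so the p-values reflect only how these libraries spread, which may be technical.

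Each deposited table has these columns, per the file headers: the mean normalized count (a signal averaged over the libraries compared), the log2 fold change, its error, the Wald statistic (a score), and the p-value, raw and adjusted. Tables were normalized separately. Columns with values of single libraries numbered 0, so depth per library is unknown here, no replicate could be left out, and each error is the deposited standard error. The lowest mean count was 9.31 in the a6 table, 2.44 in the SAHA table and 0.145 in the compound 1 table. Checked on their own values, the score equals fold change over standard error and the adjusted p a Benjamini-Hochberg adjustment over each table.

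A call is a deposited adjusted p under 0.05. Group levels were computed from mean count and fold change for equal groups, and 95% intervals from the standard error and the normal distribution. Differences between compounds were subtracted log2 fold changes, with both errors added in quadrature, a z test (two-sided) and adjustment over all genes of both tables. The calculation was also run on simulated fold changes with independent errors. Real comparisons share Ctrl, so that run does not show how the test behaves with a shared Ctrl. Levels per kb use the union of exons in GENCODE 29, which matched 98.9%, 98.3% and 97.0% of the a6, SAHA and compound 1 genes; all positions are on GRCh38. Promoter windows and sequences are RefSeq's (GRCh38.p14). The 6 genes, the 7 lists and the rule for named genes (the 6 genes, set partners, up to 6 list genes that pass per list and compound, by adjusted p, neighbours within 250 kb, and the 5 genes most like HSD11B1) were chosen with earlier results of these data known. AKR1C2 and GLUL are named beyond that rule, after their values were seen, and some genes that the rule covers are not reported here. Python 3.11.15, pandas 2.3.3, scipy 1.17.1 and statsmodels 0.14.6 were used.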

Additional observations from a re-analysis of the deposited data

Results flagged for a closer look

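In the lists around the glucocorticoid axis, 3 genes differed between compounds by the z test on the difference of log2 fold changes, adjusted over all genes of both tables. For SAHA minus compound 1, HSD17B2 differed by 3.77 (3.08 with SAHA and -0.68 with compound 1), SRD5A3 by 1.76 (1.75 and -0.01) and CXCR4 by 1.70 (1.69 and -0.01). SRD5A3 was at 0.05 with a6, and its a6 minus SAHA difference of -1.70 had an adjusted p of 0.0814.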

How the results depend on the processing

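No paired analysis was possible because the tables hold comparisons and the columns carry no library or replicate number; for the same reason no replicate was left out. The alternatives for the neighbours of HSD11B1 were chosen after seeing the data. The log2 fold change of HSD11B1 ranged over 2.37 to 2.41 with a6 and 3.85 to 3.94 with SAHA across all alternatives. Only centring on the median fold change and removal of the GC trend can alter that value. The other alternatives change the threshold or the genes adjusted over and leave it as it is. The counts of the 6 genes raised or lowered against Ctrl stayed at their values. The raised neighbours of HSD11B1 with SAHA numbered 2 with the GC trend removed, against 1 otherwise. Of the other list genes, those lowered numbered 0 with a6 and 4 with SAHA at an adjusted p under 0.01, against 3 and 10, and 5 with SAHA when at least a 2-fold change was also asked. At an unadjusted p under 0.05 with at least a 2-fold change, the raised ones numbered 2 with a6 and 1 with compound 1, against 0 and 0. With an error correlation of 0.5 for the shared Ctrl, list genes passing for a6 minus SAHA numbered 4 higher and 9 lower, for a6 minus compound 1 they numbered 1 lower, and for SAHA minus compound 1 they numbered 6 higher and 11 lower, against 3 and 0 there and 0 in each of the others. That setting lowers the error of every gene, and the share of all genes that passed under it was not worked out. Nothing is thus read from these list counts. Under the same setting 1 of the 6 genes, HSD11B1, was lower for a6 minus SAHA, against 0 otherwise. With a mean count of at least 50 in both tables, 0 of the 6 genes were higher for SAHA minus compound 1, against 1, because HSD11B1, at a mean count of 22.3 in the compound 1 table, was no longer tested. With gaps of up to 12 bases, the G4 motif was in 37.8% of promoter windows, against 25.0%, and in 2 of 2 windows of FKBP5. Single list genes near the threshold lost their call in 28 cases and none changed sign; with the GC trend removed these were AKR1C2, AKR1C3, FKBP4 and NFKBIA with SAHA (adjusted p 0.0576, 0.0723, 0.0595 and 0.0542). Low counts limit several genes, among them HSD17B2, AKR1C2, MMP3, CAMK1G and ABCB1, with Ctrl levels of 10.5, 9.17, 1.37, 0.675 and 0.191.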
